A study of Mus musculus with 12 samples.

Results

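Hox genes encode homeodomain transcription factors that give cells a position along the head-to-tail axis, and mammals carry them in the clusters HoxA, HoxB, HoxC and HoxD. Within a cluster the genes lie in the order in which they are used along the body axis, so low-numbered genes act toward the head and high-numbered genes toward the tail. Genes with the same number in different clusters are paralogs, copies descended from a shared ancestor gene. In the mouse, Hoxa3 acts in the third pharyngeal pouch, the embryonic pocket that forms the epithelium of the thymus, and its loss leaves the animal without a thymus.

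The 39 Hox genes described here are all symbols made of Hox, a cluster letter from a to d and a number, among 23306 gene symbols in the deposited table of read counts. HoxA held 11 of them, HoxB 10, HoxC 9 and HoxD 9. They were measured by RNA sequencing of poly(A) RNA, amplified by an ultra-low input method, from stromal cells sorted from the thymus of C57 BL6 KitL-tomato reporter mice, in which a red fluorescent protein reports Kit ligand (KitL). The study's title concerns membrane-bound Kit ligand provided to T cell progenitors by vascular endothelial and epithelial cells.

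All 4 groups came from this reporter strain and from cells negative for lineage markers (Lin-) and for the dead-cell dye Dapi, and each group had 3 libraries. The tomato+ VEC group (vascular endothelial cells) was gated as EpCAM- CD31+ td-tomato+, and the tomato- VEC group as EpCAM- CD31+ td-tomato-. The tomato+ cTEC group (cortical thymic epithelial cells) was gated as EpCAM+ CD31- UEA1- Ly51+ and positive for the reporter. The tomato- mTEC group (medullary thymic epithelial cells) was gated as EpCAM+ CD31- UEA1+ Ly51- and negative for the reporter, so that in epithelium the cortical or medullary gate and the reporter change together and cannot be told apart. The labels give no ages, and nothing in the labels says whether the replicates came from separate mice, so p-values measure the spread between these libraries, which may be technical.

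The libraries held 8388869 to 11807130 counted reads. Levels are given as CPM, read counts relative to library size after TMM normalisation for library composition, and levels of different genes are compared only as RPKM, which divides by gene length. Endothelial markers (6 genes, none at 0 in any group) summed to 7370 to 7974 CPM in tomato+ VEC, 7653 to 9918 CPM in tomato- VEC, 2.08 to 290 CPM in tomato+ cTEC and 13.6 to 45.6 CPM in tomato- mTEC. Thymic epithelial markers (6 genes) summed to 0.653 to 1.14 CPM in tomato+ VEC with Epcam at 0, 0.222 to 1.06 CPM in tomato- VEC with Pax1 at 0, 1263 to 1545 CPM in tomato+ cTEC and 1560 to 1777 CPM in tomato- mTEC. The gates and these markers therefore gave the same lineages. In tomato+ cTEC against tomato- mTEC, all 3 cortical markers were higher and all 3 medullary markers lower by the edgeR test described below. The cTEC library with the endothelial sum of 290 CPM was replicate 2, and its values are named below where they bear on a Hox gene. In these sorted bulk samples fewer cells with a transcript and less transcript per cell cannot be told apart.

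Endothelium carried Hox transcripts of HoxA, HoxB and HoxD, cortical epithelium mainly those of HoxA, and medullary epithelium mainly those of HoxA and HoxB. HoxC was low everywhere, with a sum of at most 3.64 CPM in any library. Summed over all 39 genes, Hox transcripts averaged 152 ± 30.2 CPM in tomato+ VEC and 202 ± 42.7 CPM in tomato- VEC, against 40.0 ± 8.58 CPM in tomato+ cTEC and 23.9 ± 8.35 CPM in tomato- mTEC (SD, n = 3 each). The 6 VEC libraries lay between 123 and 250.1 CPM and the 6 TEC libraries between 15.6 and 49.4 CPM, without overlap. A group mean of at least 1 CPM was reached by 15 Hox genes in the tomato+ VEC group, 16 in the tomato- VEC group, 7 in the tomato+ cTEC group and 7 in the tomato- mTEC group.

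No HoxC gene reached 1 CPM in any group, and all 9 HoxC genes had 0 counts in the 3 tomato- VEC libraries, which allows up to 0.110 CPM for each gene (3 counts over the group; such floors and the counting intervals below cover counting error only). HoxC summed to 6 counts in tomato+ VEC and 0 counts in tomato- VEC, to 17 counts in tomato+ cTEC and to 68 counts in tomato- mTEC, out of 91 counts in all. HoxD was also low in epithelium, with 17 counts in tomato+ cTEC and 32 in tomato- mTEC, but gave 1673 counts in tomato+ VEC and as many as 3013 in tomato- VEC. No cluster was at 0 in every group. By the same sums HoxA had 4953 counts over the 12 libraries, HoxB 1947 and HoxD 4735.

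**Figure D1:**
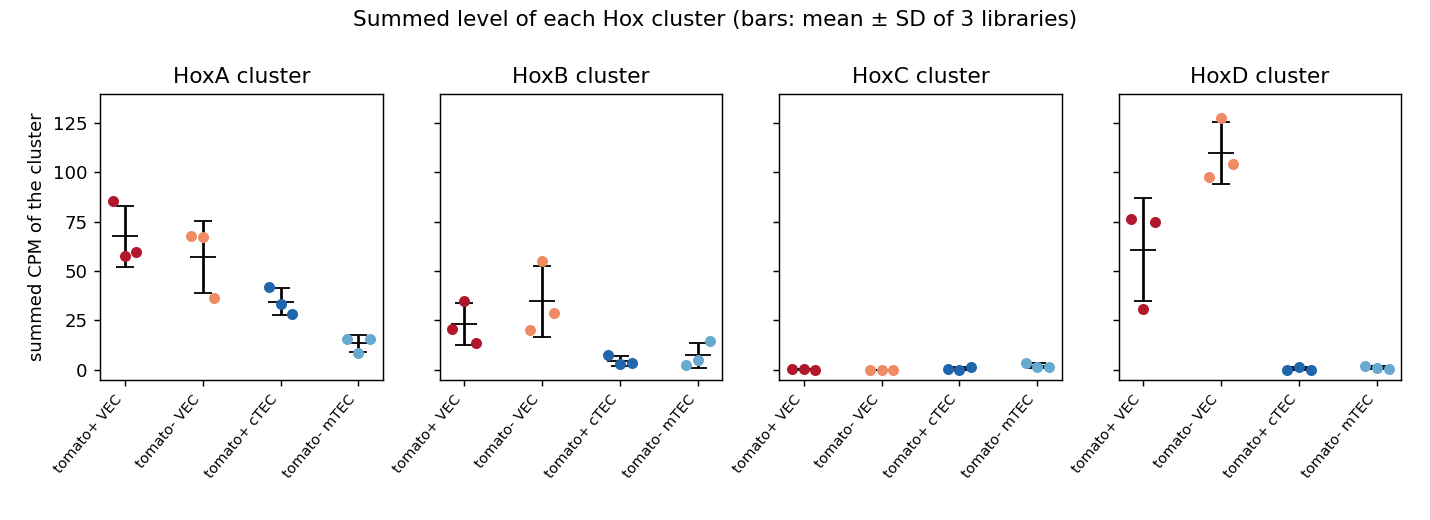
Summed CPM of the Hox genes of each cluster, a point for each library and a bar at the group mean, with groups from tomato+ VEC to tomato- mTEC. HoxD averages 60.8 CPM in tomato+ VEC and 109.9 CPM in tomato- VEC and under 1.1 CPM in both epithelial groups, while HoxC stays under 4 CPM in every library.

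The share of each cluster in the summed mean RPKM of all 39 genes was then taken, as a description with no test. HoxA made up 41% of the Hox RPKM of tomato+ VEC and 25.8% of that of tomato- VEC, against 87.9% in tomato+ cTEC and 51.3% in tomato- mTEC. HoxD made up 45.3% of the Hox RPKM of tomato+ VEC and 60.2% of that of tomato- VEC, against 1.94% in tomato+ cTEC and 4.32% in tomato- mTEC. By position within the clusters, paralogs 1 to 4, the head-ward genes, held 32.8% of Hox RPKM of tomato+ VEC, 29% of tomato- VEC, 92% of tomato+ cTEC and 47.2% of tomato- mTEC. Paralogs 5 to 8, which pattern the trunk, held 60.4% of tomato+ VEC, 59.5% of tomato- VEC, 6.75% of tomato+ cTEC and 9.93% of tomato- mTEC. Paralogs 9 to 13, the tail-ward genes, held 6.79% of Hox RPKM of tomato+ VEC, 11.5% of tomato- VEC, 1.23% of tomato+ cTEC and 42.9% of tomato- mTEC.

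Single genes carried some of these shares. Without Hoxd8, paralogs 5 to 8 held 36.7% of the Hox RPKM of tomato+ VEC and 25.3% of that of tomato- VEC, below paralogs 1 to 4 with 52.5% of tomato+ VEC and 53.5% of tomato- VEC. The first place of the trunk genes in endothelium was thus that of Hoxd8. Without Hoxb13, which came from 1 library, paralogs 9 to 13 held 25.4% of the Hox RPKM of tomato- mTEC, and HoxB held 15.5%. Head-ward genes held the main share in cTEC in each case.

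**Figure D2:**
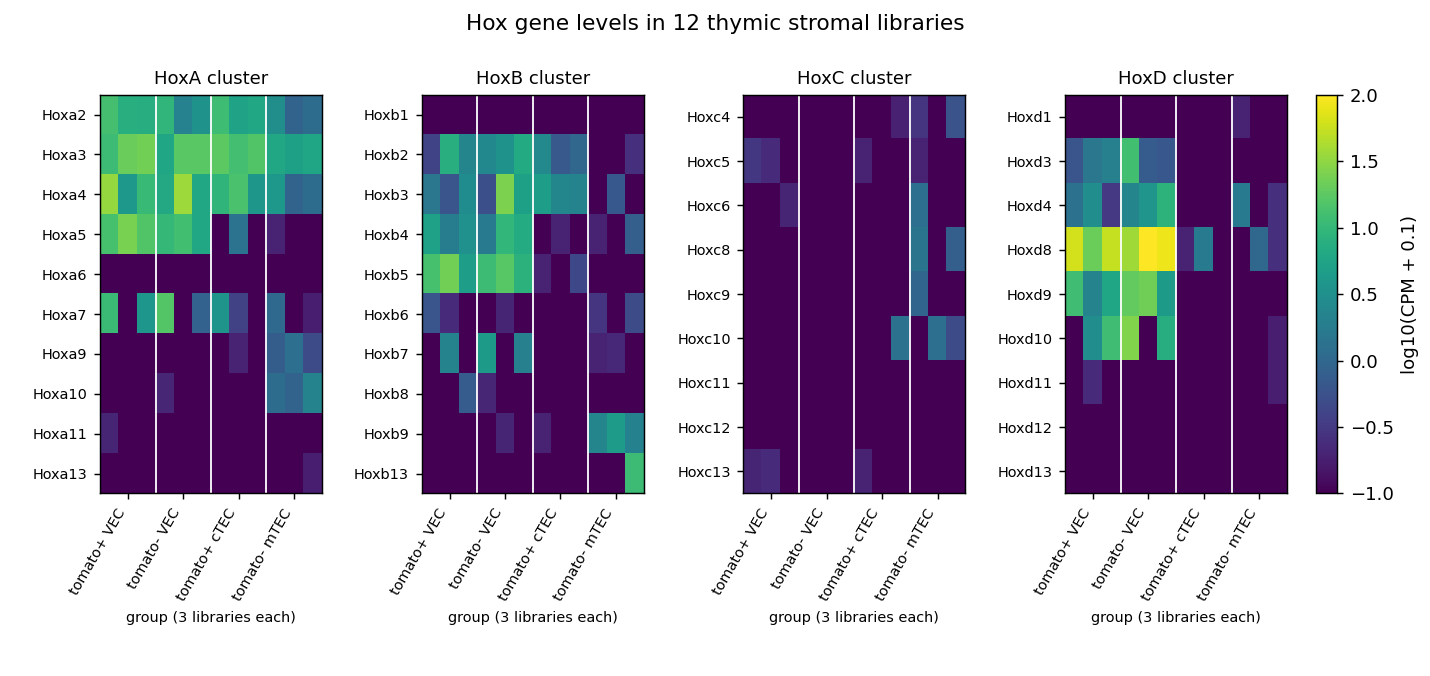
Level of 38 Hox genes in each of the 12 libraries, as log10(CPM + 0.1), with genes ordered by cluster and number and libraries by group from tomato+ VEC to tomato- mTEC. The HoxD block from Hoxd3 to Hoxd10 is mostly filled in the VEC libraries and almost empty in the TEC libraries, and the HoxC block is almost empty throughout.

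Per gene length, Hoxd8 was the highest Hox transcript of endothelium, and Hoxa3 and Hoxa4 were the highest of cortical epithelium. In tomato+ VEC the order by RPKM was Hoxd8 (29.4 ± 13.9), Hoxa4 (9.43 ± 8.99), Hoxa5 (8.54 ± 2.97), Hoxa3 (6.49 ± 2.24), Hoxb5 (6.48 ± 4.30) and Hoxa2 (5.00 ± 1.60). In tomato- VEC it was Hoxd8 (49.5 ± 22.4 RPKM), Hoxa4 (10.0 ± 10.6), Hoxd9 (6.72 ± 4.17), Hoxb5 (6.00 ± 2.03), Hoxd10 (5.68 ± 6.78) and Hoxa3 (4.97 ± 2.47). Below Hoxd8, neighbours in either order differed by less than their SD. In tomato+ cTEC Hoxa3 (6.61 ± 1.08 RPKM), Hoxa4 (6.41 ± 3.58) and Hoxa2 (5.10 ± 2.30) were within their spread of each other, and the next, Hoxb3, was at 0.984 ± 0.484 RPKM. In tomato- mTEC Hoxb13 (3.01 ± 5.21 RPKM) came from a single library, and Hoxa3 (2.35 ± 0.318), Hoxa4 (1.33 ± 1.2), Hoxb9 (1.10 ± 0.465) and Hoxa2 (1.02 ± 0.775) followed (SD, n = 3 for each value).

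Hoxd8, a trunk-level gene of the HoxD cluster, is shown first because it is the highest Hox transcript of endothelium and nearly missing from epithelium. Beside it stand the same stretch of its paralogs Hoxb8 and Hoxc8, which were near 0, to show how far reads of the paralogs can be told apart. Each line gives the 180 bases that code for the homeodomain, the DNA-binding part, on the coding strand, found in the GENCODE M21 transcripts of build GRCm38, with the codons of a conserved block of the recognition helix in capitals.
Hoxd8 (chromosome 2): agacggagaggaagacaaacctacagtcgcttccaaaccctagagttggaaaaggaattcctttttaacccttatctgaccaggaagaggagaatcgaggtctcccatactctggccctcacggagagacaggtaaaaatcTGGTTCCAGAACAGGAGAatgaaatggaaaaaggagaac
Hoxb8 (chromosome 11): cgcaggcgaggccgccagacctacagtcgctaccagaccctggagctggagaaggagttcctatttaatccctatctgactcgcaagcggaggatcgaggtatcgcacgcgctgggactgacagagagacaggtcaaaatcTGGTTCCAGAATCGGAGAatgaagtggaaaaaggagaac
Hoxc8 (chromosome 15): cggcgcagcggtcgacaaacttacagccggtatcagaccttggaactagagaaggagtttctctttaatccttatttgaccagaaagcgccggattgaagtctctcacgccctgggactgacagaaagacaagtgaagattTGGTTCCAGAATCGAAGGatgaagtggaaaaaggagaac
Hoxd8 shared 80.6% of these bases with Hoxb8, with a longest identical run of 17 bases, and 73.3% with Hoxc8, with a longest run of 15 bases. Over all 741 pairs of Hox genes the identity was 46.1% to 93.9%, the median longest identical run was 14 bases, and the longest of all was 52 bases.

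Hoxd8 had 62.8, 21.2 and 55.1 CPM in tomato+ VEC and 37.7, 101 and 83.5 CPM in tomato- VEC, against 0.0916, 1.57 and 0 CPM in tomato+ cTEC and 0, 0.924 and 0.160 CPM in tomato- mTEC. Every VEC library lay above every TEC library, and both VEC groups overlapped. Its paralog Hoxb8 had 6 counts in tomato+ VEC, 1 count in tomato- VEC and none in both epithelial groups, and Hoxc8 had counts only in tomato- mTEC, 23 in all, in replicates 1 and 3.

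Hoxd9, which in the mouse helps pattern the hindlimb and the lower spine, had 12.0, 2.09 and 5.78 CPM in tomato+ VEC and 19.1, 22.1 and 4.26 CPM in tomato- VEC, against 0 counts in all 6 TEC libraries. Hoxd3, which in the mouse shapes the upper neck vertebrae, was also at 0 in all 6 TEC libraries and had 0.519, 1.44 and 1.93 CPM in tomato+ VEC and 12.1, 0.637 and 0.560 CPM in tomato- VEC. Both genes had counts in every VEC library, and for Hoxd3 replicate 1 of tomato- VEC was far above the other VEC libraries.

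Hoxd4, a gene with a retinoic acid-responsive enhancer, had 1.25, 2.88 and 0.214 CPM in tomato+ VEC and 2.22, 3.61 and 8.51 CPM in tomato- VEC, against 0 in tomato+ cTEC and 1.63, 0 and 0.160 CPM in tomato- mTEC. Hoxd10, which helps specify lumbar motor neurons in the mouse, had 0, 2.88 and 12.0 CPM in tomato+ VEC and 26.7, 0 and 7.28 CPM in tomato- VEC, against 1 count in the 6 TEC libraries. Hoxd10 was thus at 0 in 2 of the 6 VEC libraries, a pattern of presence and absence between replicates that Hoxd8 and Hoxd9 did not have. Of the other HoxD genes, Hoxd12 and Hoxd13 had no count in any library, Hoxd1 had 1 count and Hoxd11 had 2.

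In HoxA, Hoxa3 had 11.2, 20.7 and 22.8 CPM in tomato+ VEC and 5.90, 17 and 16.9 CPM in tomato- VEC, against 17.6, 12.7 and 15.1 CPM in tomato+ cTEC and 6.23, 4.97 and 5.74 CPM in tomato- mTEC. For this gene, required for thymus formation, the 3 cTEC libraries lay within the range of the VEC libraries, 5.90 to 22.8 CPM. The lowest of these, replicate 1 of tomato- VEC, was within the mTEC range. The 3 mTEC libraries lay below the 3 cTEC libraries. Hoxa2, which patterns the second pharyngeal arch, had 12.9, 7.71 and 7.39 CPM in tomato+ VEC and 9.46, 2.02 and 3.25 CPM in tomato- VEC, against 11.6, 5.29 and 6.23 CPM in tomato+ cTEC and 2.97, 0.809 and 1.04 CPM in tomato- mTEC. Hoxa4 had 33.4, 3.92 and 10.8 CPM in tomato+ VEC and 6.45, 36.2 and 6.16 CPM in tomato- VEC, against 9.06, 13.5 and 3.81 CPM in tomato+ cTEC and 3.84, 0.809 and 1.04 CPM in tomato- mTEC. These were the 3 Hox genes with counts in all 6 TEC libraries.

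Hoxa5, which in the mouse is needed for the lung and the airways, was a gene of endothelium here. It had 13.3, 24.7 and 15.2 CPM in tomato+ VEC and 9.90, 12.2 and 6.16 CPM in tomato- VEC, against 0, 1.27 and 0 CPM in tomato+ cTEC and 0.0959, 0 and 0 CPM in tomato- mTEC. The single cTEC library with more than a trace was replicate 2, the one with the endothelial marker sum of 290 CPM, which also held the highest TEC value of Hoxd8. The part of those transcripts in these 2 values was not tested. Without that library the count ratio of all VEC over all TEC was 720 for Hoxa5 (95% counting interval 129 to 28500, 1 count left in TEC, edgeR adjusted p = 0.000195) and 303 for Hoxd8 (169 to 607, edgeR adjusted p = 6.23e-05), against 61.1 and 147 with it.

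Hoxa7 was uneven between replicates. It had 11.0, 0 and 3.64 CPM in tomato+ VEC and 15.7, 0 and 0.784 CPM in tomato- VEC, against 3.48, 0.294 and 0 CPM in tomato+ cTEC and 0.959, 0 and 0.0798 CPM in tomato- mTEC. All 4 groups overlapped. Hoxa6 had no count in any library, Hoxa11 had 1 count, in tomato+ VEC, and Hoxa13 had 1, in tomato- mTEC.

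In HoxB, Hoxb5, whose reporter marks long-term blood stem cells in the mouse, was the leading gene of endothelium. It had 13.4, 22.7 and 4.71 CPM in tomato+ VEC and 11.3, 16.7 and 8.29 CPM in tomato- VEC, against 0.0916, 0 and 0.346 CPM in tomato+ cTEC and 0 CPM in all tomato- mTEC libraries. Hoxb4, known for expanding blood stem cells when forced on, had 5.09, 1.70 and 3.21 CPM in tomato+ VEC and 1.67, 9.56 and 6.83 CPM in tomato- VEC, against 0, 0.0979 and 0 CPM in tomato+ cTEC and 0.0959, 0 and 0.718 CPM in tomato- mTEC. For both genes every VEC library was above every TEC library.

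Hoxb2 and Hoxb3, which give identity to hindbrain segments, reached cortical epithelium as well. Hoxb2 had 0.312, 7.45 and 2.25 CPM in tomato+ VEC and 2.45, 3.40 and 6.72 CPM in tomato- VEC, against 2.47, 0.587 and 0.865 CPM in tomato+ cTEC and 0, 0 and 0.160 CPM in tomato- mTEC. Hoxb3 had 1.45, 0.523 and 2.78 CPM in tomato+ VEC and 0.445, 25.2 and 4.93 CPM in tomato- VEC, against 4.67, 2.25 and 2.08 CPM in tomato+ cTEC and 0, 0.578 and 0 CPM in tomato- mTEC. For both, the 3 cTEC libraries lay above the 3 mTEC libraries and overlapped the VEC libraries. In the GENCODE M21 annotation 52.9% of the exon bases of Hoxb3 and 27.3% of those of Hoxb2 overlap the antisense gene Hoxb3os, and since the use of strand in the counting is not given, reads of Hoxb3os could be among these counts. Hoxb7 had 0, 2.09 and 0 CPM in tomato+ VEC and 4.23, 0 and 1.90 CPM in tomato- VEC, against 0 in tomato+ cTEC and 0.0959, 0.116 and 0 CPM in tomato- mTEC, so 3 of the 6 VEC libraries carried it.

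Tail-ward genes of HoxA and HoxB were found in medullary epithelium, with at most 1 count in any other group. Hoxb9, which patterns the thoracic skeleton in the mouse, had 0 CPM in all tomato+ VEC libraries and 0, 0.106 and 0 CPM in tomato- VEC, against 0.0916, 0 and 0 CPM in tomato+ cTEC and 2.21, 4.27 and 1.99 CPM in tomato- mTEC. Hoxa10, which acts in the uterus and the lumbar spine, had 0 CPM in all tomato+ VEC libraries and 0.111, 0 and 0 CPM in tomato- VEC, against 0 in tomato+ cTEC and 1.05, 0.809 and 2.07 CPM in tomato- mTEC. Hoxa9, a paralog of Hoxb9 and Hoxd9, had 0 counts in both VEC groups, 1 count in tomato+ cTEC and 0.671, 1.16 and 0.399 CPM in tomato- mTEC. For Hoxb9, Hoxa10 and Hoxa9 all 3 mTEC libraries were above the other 9. The share of all genes with this pattern was not taken, and these 3 are named for their mTEC counts, so this only describes them.

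Hoxb13, known for its role in the prostate and the tail end of the axis, was counted in a single library, replicate 3 of tomato- mTEC, with 140 counts or 11.2 CPM. Without that library no count of Hoxb13 remained in any group. Hoxb6 had 14 counts in all and Hoxb8 had 7, and Hoxb1 had none.

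The HoxC genes with more than 3 counts in a group were also mostly in mTEC. Hoxc6 had 1.15, 0 and 0 CPM there, Hoxc8 had 1.34, 0 and 0.718 CPM, Hoxc9 had 0.863, 0 and 0 CPM, and Hoxc4 had 0.192, 0 and 0.479 CPM. Hoxc10 had 0, 0 and 1.21 CPM in tomato+ cTEC and 0, 1.16 and 0.399 CPM in tomato- mTEC. Each was at 0 in at least 1 library of its group. Hoxc5 had 5 counts over all libraries and Hoxc13 had 3, while Hoxc11 and Hoxc12 had none.

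In all, 27 of the 39 Hox genes had at least 1 count in tomato- mTEC, more than in tomato+ VEC (23), tomato- VEC (20) or tomato+ cTEC (17). The mTEC libraries also had the most genes of any kind with a count, 16708 to 17015, against 15086 to 15605 in tomato+ cTEC and 13406 to 14346 over the VEC libraries. Compared with tomato+ cTEC, sums of other cell types' markers went both ways. Leukocyte, pericyte and smooth muscle, and erythrocyte and platelet markers had higher sums in every tomato- mTEC library than in any tomato+ cTEC library. Thymocyte and fibroblast markers had lower sums in every tomato- mTEC library. Leukocyte markers (5 genes) summed to 336 to 398 CPM in tomato- mTEC with none at 0, against 3.48 to 151 CPM in tomato+ cTEC with Cd79a at 0. Most of the mTEC sum was Lyz2 (351 ± 38.8 CPM, against 47.5 ± 81.2 CPM in cTEC; SD, n = 3 each). Ptprc lay the other way (3.34 ± 4.31 CPM in mTEC, 4.15 ± 4.72 CPM in cTEC), while Cd79a, Itgax and Csf1r had higher means in mTEC. Pericyte and smooth muscle markers (6 genes, none at 0) summed to 582 to 873 CPM in tomato- mTEC, against 127 to 402 CPM in tomato+ cTEC. By edgeR 0 of 3 leukocyte and 0 of 6 pericyte genes tested passed between these groups, where 7.83% of all genes did. The part of any of these in the tail-ward and HoxC counts of mTEC was not tested.

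**Figure D3:**
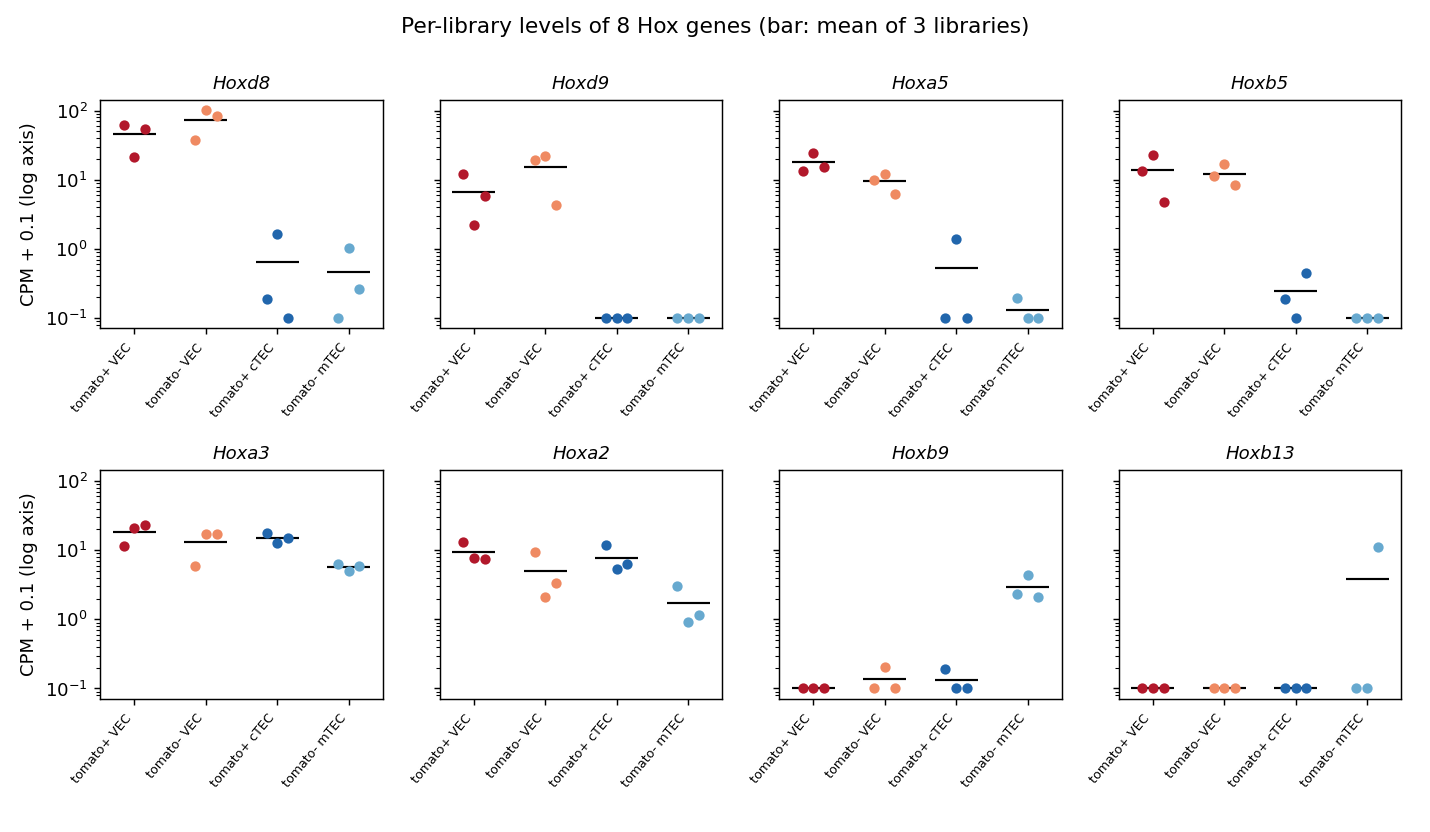
CPM of 8 Hox genes in each library on a log axis of CPM + 0.1, with groups from tomato+ VEC to tomato- mTEC and a point for each library. Hoxd8, Hoxd9, Hoxa5 and Hoxb5 lie higher in all VEC libraries than in any TEC library, Hoxa3 and Hoxa2 are present in all groups, Hoxb9 is in the mTEC libraries, and Hoxb13 is in 1 mTEC library at 11.2 CPM.

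The first comparison set all 6 VEC libraries against all 6 TEC libraries and asked how the positional gene sets of endothelium and epithelium differ. Of the 17 Hox genes with enough counts to test, 10 were higher in VEC, 1 was lower and 6 did not pass (edgeR quasi-likelihood test, Benjamini-Hochberg adjusted p under 0.05 over 14792 genes). Over all genes tested, 14.4% were higher and 21.8% lower. The filter on low counts let a gene through if it was high in a single group, so the 17 tested genes (6 of HoxA, 6 of HoxB, 0 of HoxC, 5 of HoxD) had already been chosen for being high somewhere, and their number is a description. The median log2 fold change of the 17 was 4.90, or 3.38 with count ratios or bounds for the 10 genes that had 3 counts or fewer in a group of the lower lineage, against -0.18 for all genes.

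All 5 tested HoxD genes were among the 10. Hoxd8 had a log2 fold change of 7.04 (SE 1.03, edgeR adjusted p = 0.000226), the highest level of the family. Hoxd9, with 604 counts in VEC and 0 in TEC, was at least 240-fold higher (floor of 3 counts over the 6 TEC libraries, adjusted p = 0.000455 by edgeR). Hoxd3, with 154 counts in VEC and 0 in TEC, was at least 61.2-fold higher (edgeR adjusted p = 0.00477). Replicate 1 of tomato- VEC gave 109 of these counts, and without it the bound was 21.5-fold (edgeR adjusted p = 0.00852). That library also had the highest VEC sum of erythrocyte and platelet markers (173 CPM, against 0.531 and 0.560 CPM in the other tomato- VEC libraries). Its sum of leukocyte markers was the highest in VEC too (43.2 CPM, against 0.212 and 0.224 CPM). All of that leukocyte sum was Lyz2, with Ptprc, Cd79a, Itgax and Csf1r at 0 in this library. The part of these transcripts in its Hox values was not tested. Hoxd10 had 439 counts in VEC and 1 in TEC, a ratio of 523 with a 95% counting interval of 93.4 to 20700 (edgeR adjusted p = 0.00874). The ratio was 285 without tomato- VEC replicate 1, and without tomato- mTEC replicate 3, the library with the single TEC count, Hoxd10 was at least 140-fold higher. Hoxd4 had 166 counts in VEC and 19 in TEC, a ratio of 10.4 (6.46 to 17.7, edgeR adjusted p = 0.0147), and here the libraries overlapped. Of the 19 TEC counts 17 came from tomato- mTEC replicate 1, without which the ratio was 82.9 (22.6 to 690), and without tomato- VEC replicate 3 it was 6.77 (4.09 to 11.8). In GENCODE M21, Hoxd3 and Hoxd4 share 388 exon bases, 9.26% of the exons of Hoxd3 and 13.2% of those of Hoxd4, so part of their counts may be common.

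In HoxB, 4 genes rose in endothelium and 1 fell. Hoxb5 had 680 counts in VEC and 5 in TEC, a ratio of 162 (69.1 to 501, edgeR adjusted p = 0.000246), and Hoxb4 had 258 counts in VEC and 11 in TEC, a ratio of 28 (15.4 to 56.7, edgeR adjusted p = 0.00334). These ratios rest on few TEC counts: without tomato+ cTEC replicate 3 that of Hoxb5 was 665 (119 to 26300), and without tomato- mTEC replicate 3 that of Hoxb4 was 124 (33.9 to 1030). Hoxb2 had a ratio of 5.17 (3.72 to 7.31, edgeR adjusted p = 0.0165) with overlapping libraries, and of 10.7 (6.61 to 18.5) without tomato+ cTEC replicate 1. Hoxb7 had 71 counts in VEC and 2 in TEC, a ratio of 42.3 (11.3 to 356, edgeR adjusted p = 0.0401), and was lost in 14 of 22 alternative analyses. Its ratio was 23.6 without tomato- VEC replicate 1, 70.9 without tomato- mTEC replicate 1 and 73.2 without tomato- mTEC replicate 2. Hoxb9 was the single Hox gene that fell in VEC, with 1 count against 86 in TEC, a ratio of 72.1 in favour of TEC (12.6 to 2880, edgeR adjusted p = 0.0454), and this call was lost in 14 of 22 alternatives too. Without tomato- mTEC replicate 2 the ratio was 47.5, and without tomato- VEC replicate 2, which held the single VEC count, Hoxb9 was at least 19.8-fold lower in VEC. Hoxb3 did not pass (log2 fold change 2.39, SE 1.14, edgeR adjusted p = 0.126), but passed in 1 of 22 alternatives, without tomato- mTEC replicate 2 (adjusted p = 0.0271). Its count ratio was 3.81 (3.04 to 4.8). Without tomato- VEC replicate 2, which gave 237 of its 329 VEC counts, the ratio was 1.29 (0.963 to 1.73).

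In HoxA, Hoxa5 rose, with 718 counts in VEC and 14 in TEC, a ratio of 61.1 (36.2 to 112, edgeR adjusted p = 0.00138). None of Hoxa2, Hoxa3, Hoxa4 or Hoxa7 passed. Hoxa3 had a log2 fold change of 0.74 (SE 0.45, edgeR adjusted p = 0.234), Hoxa2 one of 0.93 (SE 0.64, adjusted p = 0.291), and Hoxa4 one of 1.98 (SE 0.76, adjusted p = 0.0621). Hoxa4 passed in 3 of 22 alternatives, with an edgeR adjusted p of 0.0355 without tomato+ VEC replicate 2 and 0.0407 without tomato- mTEC replicate 1, and with a DESeq2 adjusted p of 0.0289. Hoxa7 was at 2.94 (SE 1.68, edgeR adjusted p = 0.203). A missed threshold at these errors does not show equal levels.

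For Hoxa5, Hoxb4, Hoxb5, Hoxd3, Hoxd8 and Hoxd9 every VEC library lay above every TEC library, a pattern that 7.5% of all genes tested had in that direction. The calls of Hoxa5, Hoxb4, Hoxb5, Hoxd4, Hoxd8, Hoxd9 and Hoxd10 held in all 22 alternative analyses. Among genes with too few counts for the test, Hoxb13 (0 counts in VEC, 140 in TEC) was at least 39.1-fold lower in VEC, and Hoxa9 (0 counts in VEC, 23 in TEC) at least 6.43-fold lower. Hoxa10 (1 count in VEC, 44 in TEC) had a ratio of 36.9 in favour of TEC (6.29 to 1490). These describe the pooled counts, and Hoxb13 rests on 1 library.

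**Figure D4:**
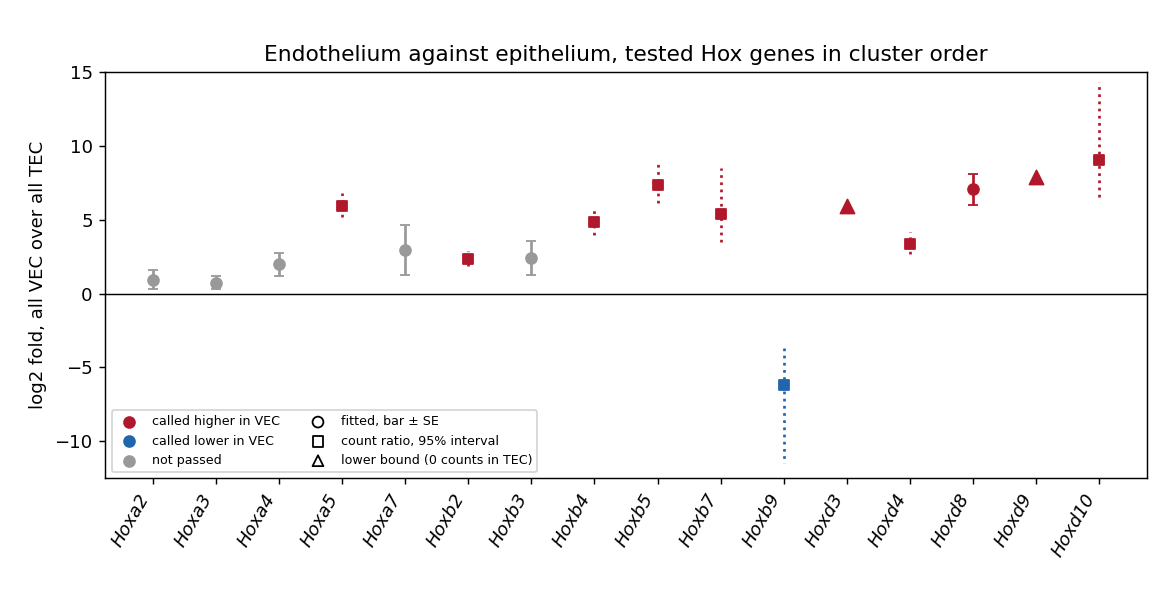
Difference between all VEC and all TEC libraries for 16 of the 17 tested Hox genes on a log2 axis, positive when higher in VEC. Circles are fitted log2 fold changes with SE, squares are count ratios with 95% counting intervals for genes with few counts in the lower lineage, and triangles are lower bounds; Hoxd8 stands at 7.04 and Hoxa3 at 0.74.

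Promoters of 3 genes called higher in VEC, and of Hoxa3, the gene needed for the thymus, are printed to show the sequence around their starts. RefSeq promoter entries (build GRCm38.p6, 250 bases before to 50 after the start, 5′ to 3′ on the gene's strand) matched 22 of the 39 genes. They were searched on both strands for TATAAA (the TATA box), for TGATNNAT (a site for Hox and Pbx proteins together) and for AGGTCA (the core element bound by retinoic acid receptors), and matches are in capitals. No overlap between different motifs occurs in the sequences below.
Hoxd8, chr2:74704365-74704664, plus strand: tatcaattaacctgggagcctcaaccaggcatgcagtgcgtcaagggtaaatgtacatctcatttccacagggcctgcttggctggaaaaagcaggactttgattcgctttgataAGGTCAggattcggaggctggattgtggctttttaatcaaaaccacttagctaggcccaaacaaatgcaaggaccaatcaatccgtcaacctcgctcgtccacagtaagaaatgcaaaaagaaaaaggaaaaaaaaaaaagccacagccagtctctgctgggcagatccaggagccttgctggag
Hoxa5, chr6:52204538-52204837, minus strand: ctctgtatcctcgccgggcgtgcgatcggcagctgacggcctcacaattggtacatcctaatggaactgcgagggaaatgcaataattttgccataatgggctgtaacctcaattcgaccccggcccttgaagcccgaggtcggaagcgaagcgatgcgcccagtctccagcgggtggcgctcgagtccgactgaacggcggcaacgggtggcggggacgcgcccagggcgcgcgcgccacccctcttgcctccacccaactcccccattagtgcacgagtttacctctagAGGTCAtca
Hoxd9, chr2:74697513-74697812, plus strand: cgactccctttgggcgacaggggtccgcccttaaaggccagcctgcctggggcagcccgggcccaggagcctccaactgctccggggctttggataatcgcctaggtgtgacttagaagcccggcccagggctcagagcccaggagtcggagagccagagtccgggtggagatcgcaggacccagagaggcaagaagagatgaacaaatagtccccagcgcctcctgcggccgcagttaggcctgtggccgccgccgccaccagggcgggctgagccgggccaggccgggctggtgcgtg
Hoxa3, chr6:52213018-52213317, minus strand: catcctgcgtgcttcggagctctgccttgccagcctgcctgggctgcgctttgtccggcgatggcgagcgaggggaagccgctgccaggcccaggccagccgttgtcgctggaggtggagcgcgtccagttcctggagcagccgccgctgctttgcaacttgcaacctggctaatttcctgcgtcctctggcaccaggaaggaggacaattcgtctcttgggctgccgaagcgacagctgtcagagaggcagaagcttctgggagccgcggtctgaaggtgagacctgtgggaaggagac
AGGTCA was present in the Hoxd8 and Hoxa5 windows and not in those of Hoxd9 and Hoxa3. It was also in the windows of Hoxb4, Hoxd3, Hoxd4, Hoxd10 and Hoxc4, and 16.3% of 32851 promoters of the same length hold it. TATAAA occurred in 13.6% of all promoters and TGATNNAT in 8.85%, and neither was in the 4 windows printed. The Hoxd8 window had 46.7% GC and 6 CpG, the Hoxa5 window 61.7% and 29, the Hoxd9 window 68.3% and 20, and the Hoxa3 window 64.0% and 20, where the median over all promoters was 52.67% GC and 7 CpG. A match is a description of letters, and these data hold no binding measurement.

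The second comparison was tomato+ VEC against tomato- VEC, which asks whether Hox genes differ between reporter-positive and reporter-negative endothelium. Markers of vessel type differed as well. Arterial markers (6 genes, none at 0) summed to 827 to 853 CPM in tomato+ VEC and 64.9 to 117 CPM in tomato- VEC. Lymphatic markers (6 genes) summed to 49.0 to 61.6 CPM in tomato+ VEC with Lyve1 and Mmrn1 at 0. In tomato- VEC they summed to 102 to 185 CPM with Mmrn1 at 0. Reporter level and vessel type cannot be told apart here. No Hox gene passed in either direction, and none had an unadjusted p under 0.05, by edgeR, while over all genes tested 1.65% passed, 0.568% higher and 1.08% lower. DESeq2 also called 0. Of the 17 genes, 4 had positive and 13 negative log2 fold changes, with a median of -0.85 against 0.00 for all genes. Hoxd8 averaged 46.4 ± 22.2 CPM in tomato+ VEC and 74.2 ± 32.8 CPM in tomato- VEC (SD, n = 3 each; log2 fold change -0.68, SE 1.10, edgeR adjusted p = 0.832). Hoxa5 was the single gene without overlap, 17.7 ± 6.11 CPM in tomato+ VEC and 9.42 ± 3.05 CPM in tomato- VEC (SD, n = 3 each; log2 fold change 0.91, SE 1.33, edgeR adjusted p = 0.804). A non-overlap in that direction was seen in 7.46% of all genes tested, and 8.32% had one in the other direction. Standard errors were 0.64 or more, so a difference of 1 on the log2 scale lay within 2 standard errors for each of the 17 genes and was not detectable at this depth and spread.

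The third comparison was tomato+ cTEC against tomato- mTEC. No Hox gene passed over all genes by edgeR, where 7.83% of genes passed, 2.73% higher and 5.1% lower, while 7 of the 17 had an unadjusted p under 0.05. DESeq2 called 0 and limma voom called 3. The shares of all genes at that unadjusted threshold and with these tools are not given, so these counts only describe the 17 genes. Hoxa3, Hoxa2, Hoxb3 and Hoxb2 had higher values in each cTEC library than in any mTEC library, which is 4 of 17 genes and near the 18.8% of all genes tested that had this pattern. Hoxa3 averaged 15.1 ± 2.43 CPM in tomato+ cTEC and 5.65 ± 0.638 CPM in tomato- mTEC (SD, n = 3 each; log2 fold change 1.41, SE 0.65, edgeR adjusted p = 0.244). Hoxa2 averaged 7.71 ± 3.42 CPM in tomato+ cTEC and 1.61 ± 1.19 CPM in tomato- mTEC (SD, n = 3 each; log2 fold change 2.25, SE 0.94, edgeR adjusted p = 0.192). Hoxb3 had a log2 fold change of 3.94 (SE 1.73, edgeR adjusted p = 0.220), and Hoxb2 had 43 counts in cTEC and 2 in mTEC, a ratio of 20.8 (5.42 to 177, edgeR adjusted p = 0.129). Other head-ward genes lay the other way: Hoxb4 had 1 count in cTEC and 10 in mTEC, and Hoxd4 had 0 in cTEC and 19 in mTEC, 17 of them in replicate 1. None of these differences passed.

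Hoxb9 stood on the mTEC side, with 1 count in tomato+ cTEC and 85 in tomato- mTEC, a ratio of 87.9 in favour of mTEC (15.4 to 3510, edgeR adjusted p = 0.0519). Its libraries did not overlap, as in 20.3% of all genes in that direction. Hoxa10, not tested, had 0 counts in cTEC and 44 in mTEC, at least 15.2-fold lower in cTEC. The median of the 17 log2 fold changes was 0.64, against 0.02 for all genes. Fibroblast markers also differed between these groups: the 6 genes, none at 0, summed to 1601 to 2193 CPM in tomato+ cTEC and 129 to 403 CPM in tomato- mTEC. Most of that was Dcn (1862 ± 267 CPM in cTEC and 240 ± 126 CPM in mTEC), while Pdgfra was at 3.87 ± 4.66 CPM in cTEC and 2.77 ± 2.01 CPM in mTEC (SD, n = 3 each), and their part in the Hox values was not tested.

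The fourth comparison set the 2 reporter-positive groups, tomato+ VEC against tomato+ cTEC, and shares its libraries with the comparisons above. There 7 Hox genes were higher in tomato+ VEC, 0 lower and 10 did not pass, where 9.45% of all genes were higher and 12.4% lower. Hoxd8 (log2 fold change 6.38, SE 1.41, edgeR adjusted p = 0.00669) and Hoxb5 (6.4, SE 1.37, adjusted p = 0.00779) led. Hoxa5 was at 5.36 (SE 1.61, edgeR adjusted p = 0.0318). Hoxb4 had 92 counts in tomato+ VEC and 1 in tomato+ cTEC, a ratio of 113 (19.8 to 4510, edgeR adjusted p = 0.0214). Hoxd9 was at least 76.2-fold higher (186 counts in tomato+ VEC, 0 in tomato+ cTEC, edgeR adjusted p = 0.00641). Hoxd4, counted 36 times in tomato+ VEC and 0 times in tomato+ cTEC, was at least 14.7-fold higher (edgeR adjusted p = 0.0399), and Hoxd3, counted 34 times in tomato+ VEC and 0 times in tomato+ cTEC, at least 13.9-fold (adjusted p = 0.0498). The calls of Hoxd3 and Hoxd4 were lost in 18 and 13 of 22 alternatives, that of Hoxa5 in 4 of 23 (adjusted p up to 0.0795) and that of Hoxb4 in 2 of 23 (up to 0.0872). The count of 7 fell to 4 without tomato+ VEC replicate 2, to 3 without tomato+ cTEC replicate 1 and to 3 without tomato+ cTEC replicate 3. Hoxa3 had a log2 fold change of 0.27 (SE 0.64, edgeR adjusted p = 0.825), whose sign turned to -0.03 with scaling to total counts.

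The difference between the endothelial and the epithelial reporter contrasts was tested directly. No Hox gene passed by edgeR, where 3.08% of all genes did (1.54% higher and 1.54% lower), and DESeq2 called 1. By edgeR 2 Hox genes had an unadjusted p under 0.05, and the share of all genes at that threshold is not given. The lowest p was that of Hoxb3 (difference of log2 fold changes -6.61, edgeR adjusted p = 0.154).

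Hox proteins bind DNA together with TALE homeodomain cofactors of the Pbx, Meis and Pknox families. Of 9 cofactor genes tested in VEC against TEC, 0 were higher and 6 lower, where 14.4% of all genes were higher and 21.8% lower, with a median log2 fold change of -4.36. Meis1 averaged 14.2 ± 20.4 CPM in tomato+ VEC and 7.58 ± 9.68 CPM in tomato- VEC, against 389 ± 19.7 CPM in tomato+ cTEC and 116 ± 19.8 CPM in tomato- mTEC (SD, n = 3 each; log2 fold change of VEC over TEC -4.36, SE 0.97, edgeR adjusted p = 0.00408). Meis2 averaged 0.621 ± 0.259 CPM in tomato+ VEC and 10.9 ± 13.9 CPM in tomato- VEC, against 241 ± 32.8 CPM in tomato+ cTEC and 127 ± 12.5 CPM in tomato- mTEC (SD, n = 3 each; log2 fold change -6.07, SE 0.78, edgeR adjusted p = 7.93e-05). Meis3 and Pknox2 fell as well. So did Pbx4, but its TEC level came mostly from tomato- mTEC replicate 3 (118 CPM). The other mTEC libraries held 5.37 and 0 CPM of Pbx4, and the cTEC libraries at most 1.21 CPM. Pbx3 rose in tomato+ cTEC, to 54.0 ± 25.3 CPM, against 6.68 ± 3.84 CPM in tomato- mTEC (SD, n = 3 each; log2 fold change 3.01, SE 0.68, edgeR adjusted p = 0.0215).

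**Figure D5:**
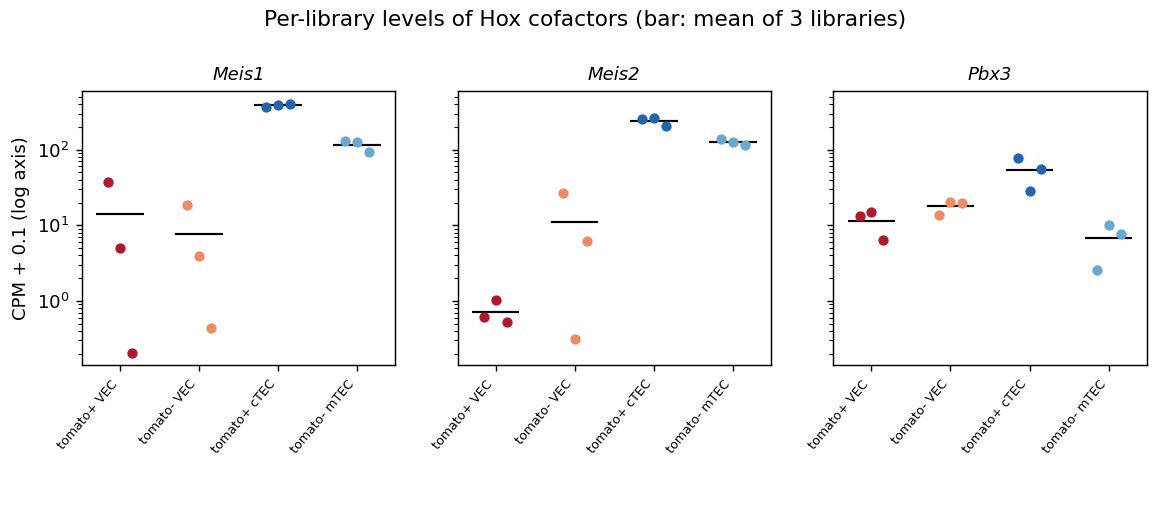
CPM of the Hox cofactor genes Meis1, Meis2 and Pbx3 in each library, with groups from tomato+ VEC to tomato- mTEC. The Meis1 libraries of VEC lie between 0.107 and 37.6 CPM and those of TEC between 93.5 and 406 CPM.

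The chromatin regulators that keep Hox clusters on (Trithorax) or off (Polycomb) passed in few cases. Of 6 Trithorax genes 1 was higher and 1 lower in VEC, Mll1 (log2 fold change 0.60, SE 0.21, edgeR adjusted p = 0.0379) and Ash2l (-1.83, SE 0.49, adjusted p = 0.0117). Of 15 Polycomb genes 1 was higher and 1 lower, Phc2 (log2 fold change 1.2, SE 0.33, edgeR adjusted p = 0.0139) and Pcgf2 (-2.33, SE 0.49, adjusted p = 0.00284). Over all genes the shares were 14.4% higher and 21.8% lower.

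Cdx1 encodes a caudal-type factor that acts upstream of Hox genes in the embryo, and was the single one of 3 Cdx genes tested. It had 1 count in each VEC group, against 0.578 ± 0.923 CPM in tomato+ cTEC and 137 ± 35.6 CPM in tomato- mTEC (SD, n = 3 each), and was lower in cTEC than in mTEC (log2 fold change -7.84, SE 1.27, edgeR adjusted p = 0.00393). Its mTEC libraries were at 175, 130 and 105 CPM, in the group where tail-ward genes of HoxA and HoxB had counts. Paralogs 9 to 13 of all clusters summed to a mean of 9.49 CPM there. In VEC, where Cdx1 was near 0, they summed to 11.8 CPM in tomato+ VEC and 26.6 CPM in tomato- VEC. The relation of Cdx1 to these Hox genes was not tested.

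Retinoic acid sets the boundaries of Hox expression in the embryo. Of 14 tested genes of its synthesis, transport, receptors and breakdown, 1 was higher and 5 lower in VEC than in TEC, where 14.4% of all genes were higher and 21.8% lower. The receptor gene Rara was higher, 23.2 ± 14 CPM in tomato+ VEC and 22.4 ± 3.95 CPM in tomato- VEC, against 8.13 ± 3.64 CPM in tomato+ cTEC and 5.43 ± 0.999 CPM in tomato- mTEC (SD, n = 3 each; log2 fold change 1.77, SE 0.48, edgeR adjusted p = 0.0123). The synthesis enzyme genes Aldh1a1 and Aldh1a3, the binding protein genes Crabp1 and Crabp2, and the receptor gene Rxrg were lower. Aldh1a3 averaged 109 ± 31.6 CPM in tomato+ cTEC and 28.4 ± 2.14 CPM in tomato- mTEC (SD, n = 3 each) and had 2 counts in the 6 VEC libraries. Within epithelium, Aldh1a1 was higher and the breakdown enzyme gene Cyp26a1 lower in tomato+ cTEC, set against tomato- mTEC.

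Of 8 listed partners of Hoxa3 in the third pharyngeal pouch, the 6 with enough counts to test were genes of the epithelium. Tbx1 and Gcm2 were not tested and were near 0 in epithelium too. Tbx1 had 1 count, from tomato- VEC, and Gcm2 had at most 8 counts per group. All 6 tested (Pax1, Pax9, Eya1, Six4 and Foxn1 among them) were lower in VEC, where 21.8% of all genes were, with a median log2 fold change of -10.05, whereas Hoxa3 itself did not pass in that comparison. Pax1 was also higher in tomato+ cTEC, 173 ± 53.1 CPM, than in tomato- mTEC, 32.4 ± 13.7 CPM (SD, n = 3 each; log2 fold change 2.41, SE 0.46, edgeR adjusted p = 0.0134).

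Genes next to the clusters were counted as well. Of 7 flanking genes tested, 0 were higher and 3 lower in VEC (Skap1, Ttll6 and Calcoco1), where 14.4% of all genes were higher and 21.8% lower, and with 7 genes this says little about the flanks. In addition, Evx1 and Evx2, homeobox genes at the tail-ward ends of HoxA and HoxD, had 0 counts in all libraries. On the HoxD side Mtx2 averaged 36.9 CPM in tomato+ VEC and 44.4 CPM in tomato- VEC, against 71.3 CPM in tomato+ cTEC and 65.4 CPM in tomato- mTEC. Of 9 non-coding RNA genes of the clusters, 7 were in the table, and 6 of these, Hotair among them, had 0 counts. A poly(A) library is not made to capture mature microRNAs, so those zeros say nothing of the microRNAs.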

How the data were processed

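Poly(A) RNA of sorted thymic stromal cells was turned into cDNA with the SMARTer Ultra Low kit and sequenced, per the labels' protocols. TopHat2 2.0.10 and the genome build mm9 are named in the submitters' processing notes, and the counting program, its annotation and its use of strand are not stated there. Per the file headers, the authors deposited unnormalised read counts for every symbol in every library, beside RPKM values made by the authors. Each of the 180417 deposited RPKM values with counts was its count over the column's sum and 1 length for the gene, within a relative tolerance of 1e-06. Of 23306 symbols 1704 had no count.

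The test was that of edgeR 4.0.16, run in R 4.3.3 (limma 3.58.1 and DESeq2 1.42.0 as alternatives). filterByExpr with a minimum count of 10 left 14792 genes, libraries were scaled by TMM, and the quasi-likelihood fit took all 12 libraries, with the group as its term (8 residual degrees of freedom, biological coefficient of variation 0.790). A gene was called at a p under 0.05 after Benjamini-Hochberg adjustment over the genes tested, whatever its fold. With 0 counts in a group, folds are bounds against 3 counts over the group. With 3 counts or fewer they are ratios of scaled counts with exact Poisson 95% intervals.

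Genes were named by a rule: every Hox gene with a group mean of at least 1 CPM with its value in each library, the others by counts, and members of companion lists that passed a test, at most 6 for each list and comparison. Values of a few genes that this rule would name are not reported here. The Hox genes and all lists were chosen with earlier results of these data known. Coordinates and sequences are of GRCm38 (GENCODE M21 and RefSeq) and not of the build of the counts, and were matched by symbol. Within each group the replicates differed beyond sampling noise (chi-square over degrees of freedom 41.4 to 137), so each library counted as 1 sample. Alternatives changed the tool, scaling, filter, dispersion estimate, pseudocount, libraries fitted and replicate block, and left out each library in turn. The scaling by total count, the count ratios without each library and the shares without Hoxd8 or Hoxb13 were chosen after the data were seen.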

Additional observations from a re-analysis of the deposited data

Results flagged for a closer look

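For the Hox genes with a group mean of at least 1 CPM, a library was singled out where, among the 6 libraries of a lineage, the gap between the extreme value and its neighbour took more of the range than Dixon's 95% limit. Chance does this in about 1 of 20 groups of normally distributed values. CPM of low counts need not follow that distribution, so the rate may not hold here. A single count against zeros always passes the limit, so the rate does not apply to the 3 single counts below. In VEC, replicate 1 of tomato- VEC stood apart for Hoxd3 (12.1 CPM, next 1.93 CPM) and Hoxa10 (0.111 CPM, a single count, next 0). Replicate 2 of tomato- VEC stood apart for Hoxb3 (25.2 CPM, next 4.93 CPM) and Hoxb9 (0.106 CPM, a single count, next 0).

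In TEC, replicate 1 of tomato+ cTEC stood apart for Hoxa7 (3.48 CPM, next 0.959 CPM) and Hoxb2 (2.47 CPM, next 0.865 CPM). Replicate 2 of tomato+ cTEC stood apart for Hoxa5 (1.27 CPM, next 0.0959 CPM), and replicate 3 for Hoxb5 (0.346 CPM, next 0.0916 CPM). Replicate 3 of tomato- mTEC stood apart for Hoxb13 (11.2 CPM, next 0), Hoxb4 (0.718 CPM, next 0.0979 CPM) and Hoxd10 (0.0798 CPM, a single count, next 0). Replicate 1 of tomato- mTEC stood apart for Hoxd4 (1.63 CPM, next 0.160 CPM).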

How the results depend on the processing

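Between VEC and TEC the count of called Hox genes stayed at 8 to 11 over 22 alternatives (9 to 11 with a library left out), against 11. Hoxb2 lost its call with the replicate block (adjusted p = 0.0509) and Hoxd3 with limma-trend on log2(RPKM + 1) (0.0773). For Hoxb7 and Hoxb9 the highest adjusted p was 1. The median of all genes in this comparison was -0.18 with TMM, -0.31 with relative log expression scaling and -0.41 with scaling to total counts, which was chosen after seeing the data.

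In tomato+ cTEC against tomato- mTEC, where 0 Hox genes were called, limma voom called 3, relative log expression scaling 1, limma-trend 2 with either pseudocount (1 or 0.1), and a fit of the libraries compared alone 1. Each of these calls Hoxb9. In tomato+ VEC against tomato+ cTEC the count was 7, 4 with the libraries compared alone, and 3 to 6 with a library left out. In the difference of the reporter contrasts it was 0, and 1 with DESeq2, limma voom and limma-trend with either pseudocount. No Hox gene was called between tomato+ VEC and tomato- VEC under any alternative. Genes reaching a mean of 2 CPM numbered 4 in cTEC and 3 in mTEC, those reaching 0.5 CPM in mTEC 11, and with a library left out 4 to 8 in mTEC reached 1 CPM; the value of 4 is without replicate 3. The sign turned for 3 genes in tomato+ VEC against tomato+ cTEC, none of a called gene: Hoxa2 to -0.0298 with total-count scaling, Hoxa3 to -0.0639 and -0.0808 with limma-trend (pseudocounts 1 and 0.1) and to -0.0282 with total-count scaling, and Hoxa4 to -0.175 without tomato+ VEC replicate 1 (-0.175 to 1.44 with a library left out). Of 761 alternatives of single genes, 672 kept direction and call, 67 lost a call, 17 gained it and 5 turned sign. The cause was not tested.

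Correlations between libraries of the same replicate number in different groups were weak (-0.0137 to 0.0687 over 18 pairs). Even so, 8 of 12 libraries correlated best with their own number. These values do not settle whether the replicate numbers pair the samples, and the main fit took them as unpaired. With the replicate block the count was 8 between VEC and TEC, 5 between tomato+ VEC and tomato+ cTEC, and 0 in the other comparisons. Depth limits genes under about 0.1 CPM, which is 3 counts over a group.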
